A study of Mus musculus with 34 samples.

Results

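Binding of FosL2, also called Fra2, was mapped in macrophages before and after activation of TLR4, and the binding sites found in either state were divided by whether they were listed with Veh, with KLA or with both. Peaks of the 2 FosL2 lists that overlapped by 1 bp or more were counted as 1 locus. The KLA list held 10619 peaks and the Veh list 5329, and together they gave 13321 loci. Of these, 7993 were listed only after KLA (60.0% of all FosL2 loci), 2622 in both states (19.7%) and 2706 only with Veh (20.3%). FosL2 loci covered 13260 of the 49612 AP-1 loci found in the 12 lists of 6 AP-1 monomers in this strain, or 26.7%. The whole series holds 596383 peaks in 30 lists.

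The cells were thioglycollate elicited macrophages (TGEMs), primary macrophages recruited to the peritoneum of male C57Bl/6EiJ mice by the genotype label (C57Bl/6J, 8 weeks old, in the study's methods), grown in culture and then given Veh, which was PBS, or KLA for 1 h. KLA (Kdo2 lipid A) is the part of bacterial endotoxin that activates TLR4. The study asked how AP-1 monomers that read the same DNA sequence come to occupy different sites. It also mapped ATF3, Jun, JunD, Fos and JunB, and PU.1, CEBPα and PPARγ. The study reports that Fos, FosL2 and JunB bound mainly after KLA. No BALB/cJ or knockout list of FosL2 was analysed here, so that every FosL2 value comes from 1 strain and from a single antibody (sc-166102).

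FosL2 belongs to the Fos subfamily of AP-1 and binds DNA through a basic leucine zipper. Proteins of the Fos subfamily do not pair with each other and bind as partners of Jun, JunB, JunD or another AP-1 protein. The dimers read a short palindrome, the TRE (TGAGTCA, or TGACTCA on the opposite strand), or a form with 1 more base, the CRE. Fos itself is scarce in resting cells and is made soon after TLR4 activation, while FosL2 is known as a slower and more lasting member of the subfamily. Macrophages open most of their enhancers with PU.1 and CEBP proteins, and AP-1 often binds beside them.

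The TRE is shown in place at the strongest loci that held one, although most KLA-only and Veh-only loci held none. The 200 bases around the centre of the leading peak are given below for the 3 loci of each class with the highest count that held a TRE in this window and touched no annotated UTR, on the plus strand of GRCm38 (mm10), 5′ to 3′, with each TRE in capitals. The KLA-only loci lay in an intron of Mtmr7 (chr8:40595222-40595421), 9.39 kb from the TSS of Cd83 (chr13:43775288-43775487) and 106 kb from that of Fmo9 (chr1:166788037-166788236). Cd83 is a surface marker of activated antigen-presenting cells.
Mtmr7, KLA-only: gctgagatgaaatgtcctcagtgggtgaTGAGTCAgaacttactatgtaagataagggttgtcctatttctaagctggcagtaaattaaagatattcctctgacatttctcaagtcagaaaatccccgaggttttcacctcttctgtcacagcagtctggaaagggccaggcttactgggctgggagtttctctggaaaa
Cd83, KLA-only: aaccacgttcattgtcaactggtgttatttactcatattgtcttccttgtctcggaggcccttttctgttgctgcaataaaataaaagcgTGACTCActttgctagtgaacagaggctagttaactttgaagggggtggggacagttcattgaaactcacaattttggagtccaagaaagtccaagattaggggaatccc
Fmo9, KLA-only: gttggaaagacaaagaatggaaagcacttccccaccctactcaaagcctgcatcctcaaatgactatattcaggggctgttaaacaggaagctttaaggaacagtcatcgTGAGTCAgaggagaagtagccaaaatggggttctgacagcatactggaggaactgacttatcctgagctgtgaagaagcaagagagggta

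The shared loci lay 11.7 kb from the TSS of Tnfaip2 (chr12:111455894-111456093), 71.9 kb from that of Pfkfb3 (chr2:11429715-11429914) and 97.5 kb from that of Dlx2 (chr2:71644130-71644329). Tnfaip2 is a gene induced by TNF, and Pfkfb3 makes the main activator of glycolytic flux. The window near Pfkfb3 held 3 TREs and that near Dlx2 held 2, the latter beside a run of dinucleotide repeats.
Tnfaip2, shared: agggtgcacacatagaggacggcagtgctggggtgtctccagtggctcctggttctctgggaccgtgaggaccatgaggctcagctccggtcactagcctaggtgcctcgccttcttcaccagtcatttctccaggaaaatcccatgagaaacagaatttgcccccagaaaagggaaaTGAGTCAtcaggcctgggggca
Pfkfb3, shared: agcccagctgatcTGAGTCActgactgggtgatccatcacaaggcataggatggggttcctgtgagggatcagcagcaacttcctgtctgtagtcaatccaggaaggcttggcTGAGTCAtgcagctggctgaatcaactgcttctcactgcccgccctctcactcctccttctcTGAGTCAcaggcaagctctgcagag
Dlx2, shared: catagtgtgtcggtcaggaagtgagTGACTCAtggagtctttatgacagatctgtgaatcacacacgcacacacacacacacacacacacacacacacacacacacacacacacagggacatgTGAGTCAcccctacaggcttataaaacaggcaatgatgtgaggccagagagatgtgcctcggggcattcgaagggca

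The Veh-only loci lay 0.209 kb from the TSS of Ticam1 (chr17:56276896-56277095), in an intron of Bcr (chr10:75170577-75170776) and 0.867 kb from the TSS of Spag9 (chr11:93995137-93995336). Ticam1 encodes TRIF, the adaptor through which TLR4 reaches the interferon pathway. Each of these windows held a single TRE.
Ticam1, Veh-only: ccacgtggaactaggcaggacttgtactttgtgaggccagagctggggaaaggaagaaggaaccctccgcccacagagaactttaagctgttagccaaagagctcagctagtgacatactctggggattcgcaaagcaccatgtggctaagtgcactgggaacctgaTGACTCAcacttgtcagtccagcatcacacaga
Bcr, Veh-only: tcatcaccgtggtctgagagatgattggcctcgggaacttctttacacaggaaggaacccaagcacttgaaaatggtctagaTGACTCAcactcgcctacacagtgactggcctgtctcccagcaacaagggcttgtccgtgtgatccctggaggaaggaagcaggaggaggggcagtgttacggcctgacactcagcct
Spag9, Veh-only: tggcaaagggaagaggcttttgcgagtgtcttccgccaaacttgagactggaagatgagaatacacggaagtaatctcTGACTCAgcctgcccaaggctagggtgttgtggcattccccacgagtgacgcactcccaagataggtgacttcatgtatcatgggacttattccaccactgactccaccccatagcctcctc

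All values below are for 1 list per condition, in which the authors had combined replicate experiments, so no test between KLA and Veh could be made. Percentages of loci are given with 95% Wilson intervals, which cover counting error only. The count of a peak is not scaled to the depth of its library, and a peak was therefore placed by its percentile within its own list. A locus that is absent from a list is one without a peak that passed the authors' threshold, and binding below that threshold cannot be told apart from no binding.

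The first comparison asked which FosL2 sites were kept. Of 5328 loci bound with Veh, 2706 had no FosL2 peak after KLA, a loss of 50.8% (49.4% to 52.1%). Of 10615 loci bound after KLA, 7993 had had none with Veh, or 75.3% (74.5% to 76.1%). The KLA list of FosL2 was thus not a superset of the Veh list, although it was 1.99 times as long. With the KLA list shortened to the 5329 peaks with the highest counts, 62.0% of the Veh loci were lost.

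Loss went with low rank. The share of Veh loci lost was 79.9% (76.7% to 82.7%) in the weakest 10% of the Veh list, with counts of 16 to 18, and decreased through each of 10 steps of rank to 14.3% (11.5% to 17.5%) in the strongest, with counts of 40 to 96. The KLA list showed the same order, with 93.2% (91.6% to 94.6%) of its weakest 10% and 41.5% (38.6% to 44.5%) of its strongest 10% absent from the Veh list. The median percentile of a lost peak in the Veh list was 35.9 (quartiles 16.1 and 57.4), against 65.3 (41.7 and 85.2) for a kept one. In the KLA list the median was 42.4 for KLA-only loci and 74.9 for shared loci. Even so, 437 of the 1052 strongest KLA loci and 75 of the 526 strongest Veh loci were in 1 list only.

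**Figure D1:**
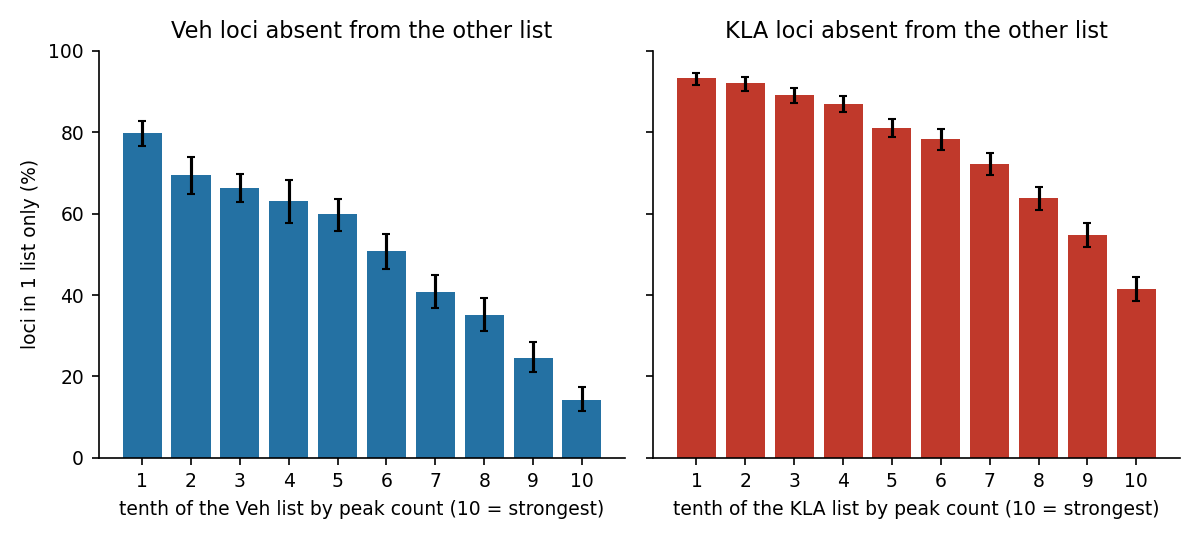
Share of FosL2 loci (%) found in 1 list only, in 10 steps of rank by peak count within the list that holds them (10 is the strongest), for the Veh list (left) and the KLA list (right). Bars are percentages and whiskers 95% Wilson intervals. The share drops from 79.9% to 14.3% across the Veh list and from 93.2% to 41.5% across the KLA list.

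Few overlapping pairs lay close to the limit of 1 bp. The 2627 overlapping pairs of peaks shared a median of 208 bp, the smallest overlap was 2 bp (a Veh peak with a count of 28 and a KLA peak with a count of 37), and 15 pairs shared less than 50 bp. Just outside the limit, the Veh-only locus closest to a KLA peak was near Tubd1, with a count of 23 and a gap of 3 bp. In all, 29 Veh-only loci (1.07%) lay within 100 bp of a KLA peak, 288 (10.6%) within 1000 bp and 1177 (43.5%) within 10000 bp.

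Among shared loci the order of the sites changed in part. The counts of the 2622 shared loci correlated between Veh and KLA with a Spearman rho of 0.513, a description across loci that come from the same 2 lists. Of these loci, 1568 (59.8%) stood at a higher percentile in the KLA list than in the Veh list, with a median shift of 4.26 percentile points (quartiles -8.89 and 22.0), and 263 were in the top 10% of both lists. Since the 2 lists differ in length, a shift gives a place in a list and not an amount of binding.

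The 5 shared loci that moved up most lay far from promoters, and 4 of the 5 held a TRE. They were in introns of Chst11 (count 17 with Veh and 113 with KLA, from the percentile of 3.59 to 97.1), Notch2 (17 and 97), Dyrk1a (16 and 89) and Jazf1 (17 and 91), and upstream of Fndc3a (18 and 114). Notch2 is a receptor that directs cell fate, and Dyrk1a a kinase. Of the 5 that moved down most, 4 are described here, and they were at Gpx1 (59 with Veh and 28 with KLA), in an intron of Itgb5 (41 and 28), at Rpl3 (37 and 27) and at Amdhd2 (43 and 32). Gpx1 makes a peroxide-reducing enzyme and Rpl3 a ribosomal protein, and only the locus in Itgb5 held a TRE. Of these 4 loci, 2 were within 1 kb of a TSS.

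**Figure D2:**
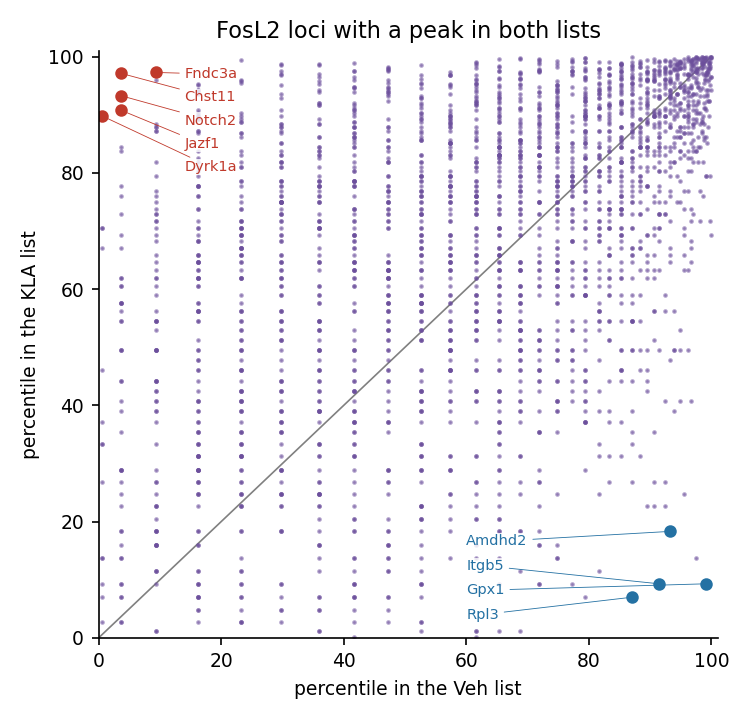
Percentile of each of the 2622 shared FosL2 loci in the Veh list (x axis) and in the KLA list (y axis), with the line of equal percentile. Red points mark the 5 loci with the largest upward shift and blue points 4 of the 5 with the largest downward shift, named by their nearest gene. Most loci (59.8%) lie above the line.

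The central question was whether the sites that FosL2 left were held by other AP-1 monomers after KLA. At the 2706 Veh-only loci, ATF3 had a KLA peak at 69.5% (67.8% to 71.2%), JunD at 69.0% (67.3% to 70.7%), Fos at 56.7% (54.8% to 58.5%) and JunB at 33.8% (32.1% to 35.6%). Any of these 4 was present at 2115 loci, or 78.2% (76.6% to 79.7%), and all 4 together at 832 (30.7%). After the full set, the most common states were none of the 4 (591 loci, 21.8%), Fos with JunD and ATF3 (557, 20.6%), JunD with ATF3 (248, 9.16%), ATF3 alone (144, 5.32%) and JunD alone (126, 4.66%). Fos alone accounted for 34 loci and JunB alone for 7. Jun was at 44.3% (42.4% to 46.2%) of the Veh-only loci.

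These shares were below those at sites that FosL2 occupied after KLA. At shared loci the shares were 94.9% for ATF3, 95.5% for JunD, 92.8% for Fos and 82.6% for JunB, and at KLA-only loci they were 92.3%, 91.8%, 84.3% and 57.7%. Any of the 4 was at 97.1% of shared and 96.3% of KLA-only loci. The intervals of the Veh-only loci did not overlap those of either class for any of the 4 monomers. Any overlap with the locus counted as presence. Median locus width was 288 bp for shared, 261 bp for Veh-only and 242 bp for KLA-only loci, and its part in these shares was not tested.

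Lost sites were next set beside resting AP-1 sites without FosL2 in either list. There were 19373 loci with a Veh peak of ATF3, Jun or JunD and no FosL2 peak in either state, and after KLA these held ATF3 at 63.3%, JunD at 53.7%, Fos at 35.6%, JunB at 17.4% and any of the 4 at 71.0%. The 2247 Veh-only FosL2 loci that also had a Veh peak of ATF3, Jun or JunD held ATF3 at 80.0% (78.3% to 81.6%), JunD at 78.9% (77.2% to 80.5%), Fos at 65.4% (63.4% to 67.4%) and JunB at 39.5% (37.5% to 41.6%), and any of the 4 at 88.4% (87.0% to 89.7%). Sites lost by FosL2 thus lay between resting AP-1 sites without FosL2 and the sites that FosL2 kept, where any of the 4 was at 99.4% of 2514 such loci. The groups were not matched for the strength of their resting peaks, and its part in this order was not tested.

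Lost and kept sites also differed when peaks of like rank were compared. Within the weakest 20% of the Veh list, Fos had a KLA peak at 38.4% of lost and 90.9% of kept loci, and JunB at 19.0% and 73.8%. Within the strongest 20%, Fos was at 81.9% of lost and 91.9% of kept loci, JunB at 60.8% and 87.9%, and any of the 4 at 87.4% and 95.8%. The share of lost loci with Fos was higher in each of 5 steps of rank of the Veh list than in the step below, while that of kept loci stayed between 90.9% and 94.0%.

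**Figure D3:**
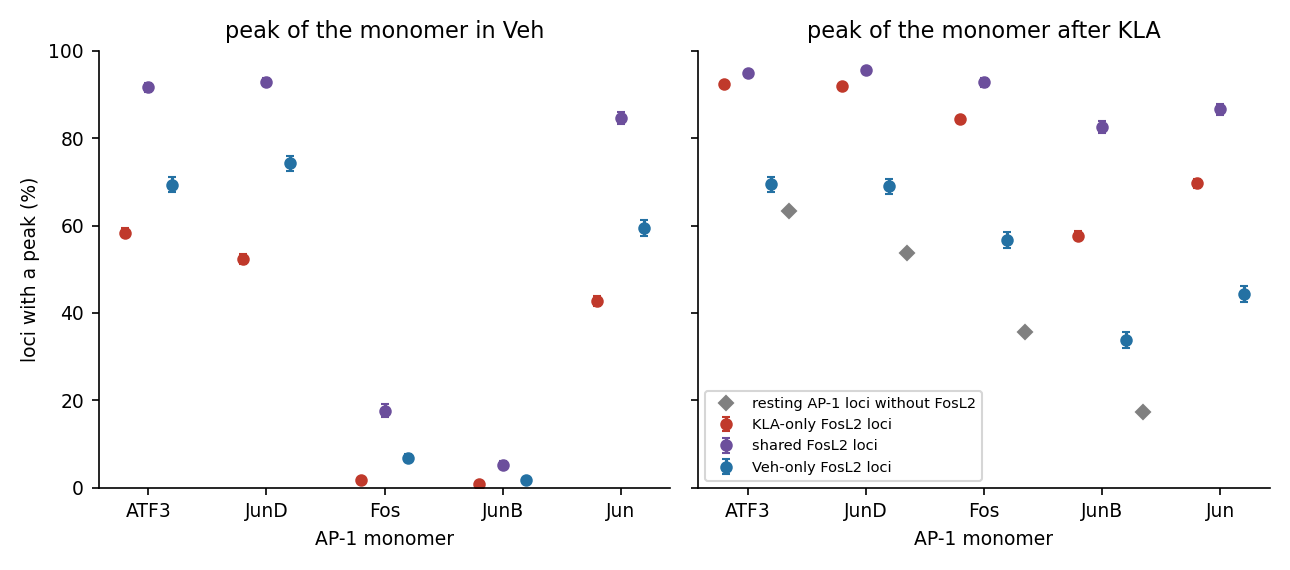
Share of FosL2 loci (%) of each class with a peak of ATF3, JunD, Fos, JunB or Jun with Veh (left) and after KLA (right). Points are percentages with 95% Wilson intervals, and grey diamonds are resting AP-1 loci without FosL2. After KLA the Veh-only loci stand below the other classes for every monomer, and above the grey diamonds for the 4 monomers shown there.

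The change of each monomer from Veh to KLA at the lost sites was followed next. Where ATF3 had a Veh peak at a Veh-only FosL2 locus, it still had 1 after KLA at 86.9%, against 98.5% at shared loci. JunD was retained at 82.1% of lost and 98.6% of shared loci, and Jun at 60.6% and 92.5%. Fos had a Veh peak at 6.76% of lost and 17.6% of shared loci. It appeared at 55.1% of the lost loci where it had no Veh peak, and JunB at 33.2%. The loss of FosL2 thus went with fewer retained ATF3, JunD and Jun peaks and with fewer new Fos and JunB peaks than at sites where FosL2 stayed (91.6% for Fos and 82.0% for JunB). Resting occupancy of lost sites was high, with ATF3, Jun or JunD at 83.0% of Veh-only, 95.9% of shared and 67.3% of KLA-only loci. A KLA-only FosL2 site was thus already an AP-1 site in resting cells in most cases.

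Where another monomer was present at a lost site, its own peak was of middling strength. The median percentile of the Fos peak within the Fos KLA list was 61.0 at Veh-only loci, 67.4 at KLA-only loci and 88.0 at shared loci. For JunD the medians were 61.0, 73.1 and 88.7, and for ATF3 63.7, 75.5 and 88.7. The lists of ATF3, JunD and Fos after KLA held 36745, 31640 and 24365 peaks, far more than that of FosL2. When each was shortened to its 10619 strongest peaks, any of the 4 was at 42.3% (40.4% to 44.1%) of Veh-only loci, 87.9% of shared loci and 70.6% of KLA-only loci. The share of lost sites held by another monomer therefore depends on how deep the other lists reach, and the order of the classes was the same in both readings.

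The 591 lost loci without Fos, JunB, JunD or ATF3 were of a different kind. They had a median Veh percentile of 23.2, against 41.7 for the 2115 lost loci that another of the 4 held. A TRE was in 6.78% (5.02% to 9.10%) of them and in 32.5% (30.5% to 34.5%) of the held loci. They lay within 1 kb of a TSS in 33.8% of cases, against 24.0%, and had had a Veh peak of ATF3, Jun or JunD in 44.0%. Jun had a KLA peak at 17 of them, or 2.88%. In all, 314 Veh-only loci (11.6%) had no peak of another AP-1 monomer in either state, against 3.22% of KLA-only and 2.25% of shared loci.

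A list can lack a site where the other monomers are strong, which bounds what absence means. At FosL2 loci where the other 4 monomers stood in the top 5% of their KLA lists, JunB was absent from its list at 7 of 472, ATF3 at 3 of 368 and JunD, Fos and Jun at 1 locus each. FosL2 was absent at 13 of 352 loci where all 5 other monomers stood in the top 5%, or 3.69% (2.17% to 6.22%).

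BALB/cJ TGEMs gave a second set of KLA lists for the other monomers. At the Veh-only FosL2 loci of C57Bl/6EiJ, BALB/cJ lists held ATF3 at 69.2%, JunD at 65.6%, Fos at 73.7% and JunB at 45.5%, and any of the 4 at 81.8% (80.3% to 83.2%). Both strains held at least 1 of the 4 at 2006 loci, or 74.1%. The BALB/cJ lists of Fos and JunB were longer (40459 and 21667 peaks) than those of C57Bl/6EiJ (24365 and 13375), so the higher shares of these monomers in BALB/cJ cannot be read as a difference between strains.

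The position of the sites differed by class. The centre lay within 1 kb of a protein-coding TSS at 26.1% (24.5% to 27.8%) of Veh-only loci, 12.9% (11.6% to 14.2%) of shared loci and 10.9% (10.2% to 11.6%) of KLA-only loci, against 21.8% of resting AP-1 loci without FosL2. The median distance to the nearest TSS was 8.44 kb, 13.6 kb and 16.7 kb in the same order. KLA-only loci lay mostly in introns (43.3%) and between genes (42.9%), and exons away from a TSS held 2.81% of them, 3.36% of shared and 4.40% of Veh-only loci. Median GC content of the central 200 bp was 53.0% at Veh-only, 51.0% at shared and 46.5% at KLA-only loci. Both the weak ranks of a list and the Veh-only class held more promoters: in the strongest 20% of the Veh list, 22.1% of lost and 11.2% of kept loci were within 1 kb of a TSS.

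**Figure D4:**
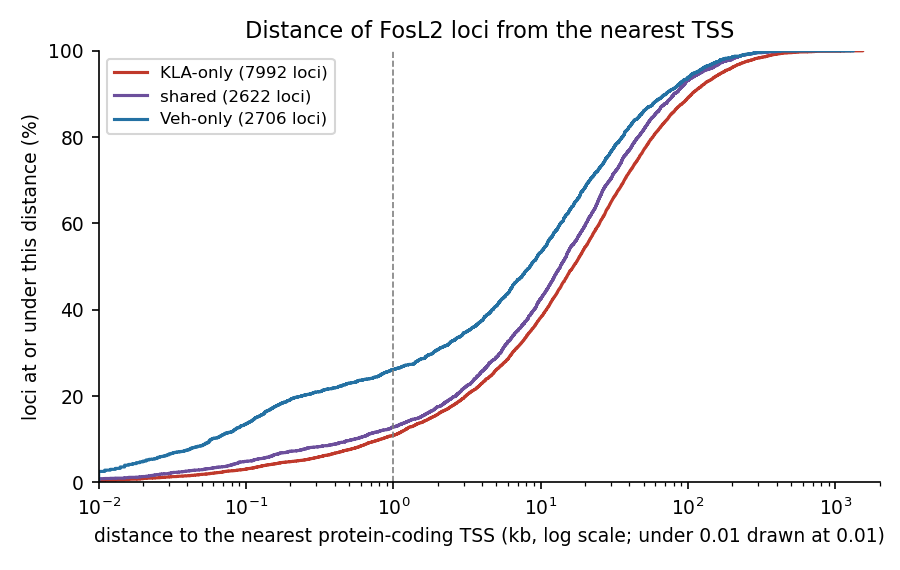
Cumulative share (%) of FosL2 loci at or under a given distance from the nearest protein-coding TSS (kb, log axis) for the 3 classes, with a dashed line at 1 kb. The curve of the Veh-only loci lies above the others at short distances, and 26.1% of them are within 1 kb, against 12.9% of shared and 10.9% of KLA-only loci.

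Promoter and distal sites among the lost loci differed in what was listed there after KLA. Among 707 Veh-only loci within 1 kb of a TSS, JunD had a KLA peak at 60.7%, ATF3 at 56.3%, Fos at 36.4% and JunB at 14.6%. Among 1768 Veh-only loci over 3 kb from a TSS, the shares were 71.9%, 74.4%, 64.5% and 41.5%. Over 3 kb from a TSS the order of the monomers was that of the length of their lists. Within 1 kb JunD stood above ATF3, with intervals that overlapped. At Veh-only loci as a whole, with lists of equal length, the order was Fos (31.5%), JunB (29.7%), JunD (29.6%) and ATF3 (28.0%).

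The TRE followed the classes. It was in the central 200 bp of 57.5% (55.6% to 59.4%) of shared loci, 41.2% (40.1% to 42.2%) of KLA-only loci and 26.9% (25.2% to 28.6%) of Veh-only loci. Of 13237130 tiles of 200 bp across the genome, 3.10% held a TRE, as did 16.9% of resting AP-1 loci without FosL2 and 27.0% of all AP-1 loci. In these AP-1 loci the window was centred on the middle of the joined locus and not on a leading peak. In loci with a TRE, the nearest 1 lay a median of 20 bp from the centre in shared loci, 24 bp in KLA-only loci and 26 bp in Veh-only loci. More than 1 TRE was present in 10.1% of shared, 5.27% of KLA-only and 1.74% of Veh-only loci. The share with a TRE also went with rank, from 24.2% in the weakest to 71.1% in the strongest 10% of the Veh list and from 29.8% to 70.6% in the KLA list. Within the strongest 20% of the Veh list, 49.7% of lost and 71.0% of kept loci held a TRE, and among loci over 3 kb from a TSS the shares were 32.3% for Veh-only, 59.4% for shared and 42.6% for KLA-only loci. At promoters within 1 kb they were 12.4%, 49.0% and 32.2%. The CRE (TGACGTCA, TGACCTCA, TGAGGTCA or TGAGCTCA) was in 4.88% of KLA-only, 6.25% of shared and 5.21% of Veh-only loci and in 1.60% of tiles.

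Other motifs differed in frequency between KLA-only and Veh-only loci, and AP-1 sites without FosL2 are given beside them. The NF-κB consensus was in 7.72% (7.16% to 8.33%) of KLA-only, 4.92% (4.16% to 5.82%) of shared and 2.74% (2.18% to 3.42%) of Veh-only loci, and in 1.44% of tiles. It was in 5.19% (4.97% to 5.43%) of all AP-1 loci without FosL2 and in 1.99% of the resting ones. Those that had no Veh peak of ATF3, Jun or JunD held it at 8.69% (8.28% to 9.13%). The share at KLA-only loci was above the first 2 of these and not above the third. Most KLA-only loci (67.3%) had such a Veh peak, and those without one were not counted apart. The consensus of IRF factors was in 4.77%, 2.52% and 2.11% of loci, against 3.33% of tiles, so that the last 2 classes were below the genome as a whole, and in 5.23% of the same AP-1 loci without FosL2 and without those Veh peaks. NF-κB and IRF proteins are the other main factors that TLR4 activates. Within each of 5 steps of rank of the KLA list, both motifs had a higher share in KLA-only than in shared loci, but the intervals overlapped in several steps. The Sp1 motif of GC-rich promoters (CCCCGCCC) went the other way, with 6.06% of Veh-only, 3.24% of shared and 1.81% of KLA-only loci, as did the E-box of USF and MITF proteins (TCACGTG) with 4.07%, 1.79% and 1.86%. Resting AP-1 loci without FosL2 had nearly the shares of Veh-only loci, 6.30% for Sp1 and 3.92% for the E-box. At loci over 3 kb from a TSS, where Sp1 was in 2.21%, 1.80% and 0.933%, the intervals of Veh-only and shared loci overlapped. PU.1 (ACTTCCT), CEBP (TTGCNNAA) and Runx (TGTGGTT) motifs were close across the classes, at 18.2% to 20.0%, 13.2% to 16.4% and 6.84% to 7.31%. All motifs were searched on both strands, and a match is a description of these letters only.

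**Figure D5:**
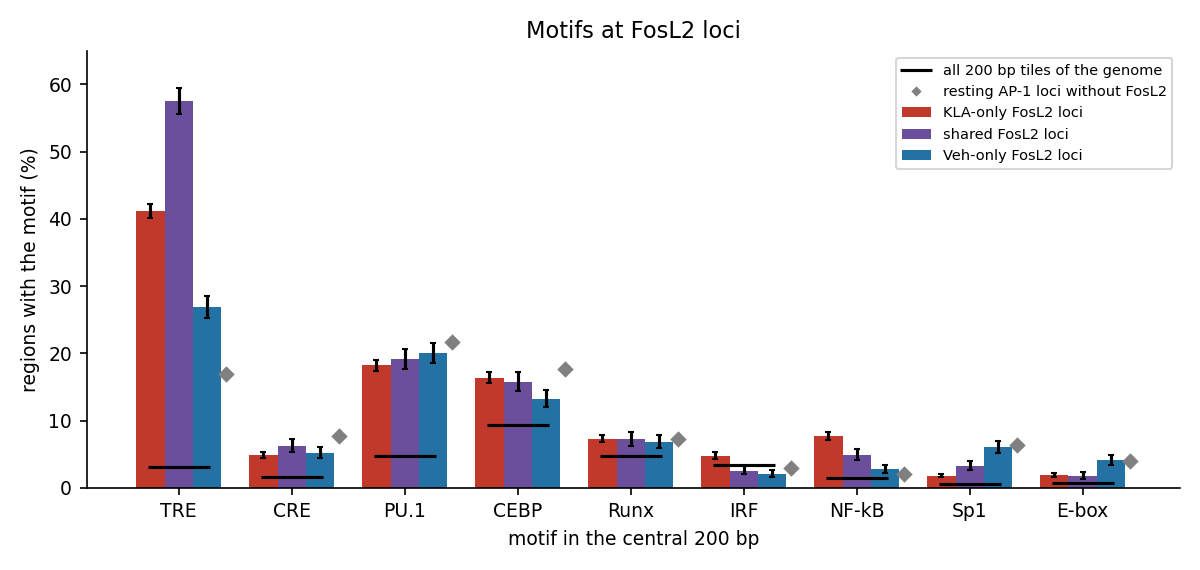
Share of FosL2 loci (%) with each motif in the central 200 bp, by class. Bars carry 95% Wilson intervals, black lines mark all 200 bp tiles of the genome and grey diamonds resting AP-1 loci without FosL2. TRE shares are 57.5%, 41.2% and 26.9% for shared, KLA-only and Veh-only loci, and NF-κB is highest in KLA-only loci at 7.72%.

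Macrophage factors were measured by their own peaks as well. PU.1, the master regulator of the myeloid lineage, had a KLA peak at 80.4% of shared, 66.8% of Veh-only and 64.2% of KLA-only loci, and a Veh peak at 69.4%, 65.3% and 45.4%. At resting AP-1 loci without FosL2, PU.1 had a KLA peak at 51.8% and a Veh peak at 52.9%. At lost FosL2 sites PU.1 was retained at 90.7% of the loci where it had a Veh peak, against 96.7% at shared loci. At KLA-only sites without a Veh peak of PU.1, 38.1% had 1 after KLA. CEBPα had a KLA peak at 50.1% of shared, 42.9% of KLA-only and 26.3% of Veh-only loci. With Veh it had a peak at 46.1%, 25.2% and 32.2% in the same order, so that Veh-only loci then stood above KLA-only loci. The share with a KLA peak at Veh-only loci was close to the 26.5% of resting AP-1 loci without FosL2 and the 26.2% of all AP-1 loci. CEBPα was retained after KLA at 70.6% of the lost loci it had occupied with Veh, and was new at 5.23% of the others, against 26.9% of KLA-only loci. PPARγ, a lipid-sensing nuclear receptor mapped only with Veh, was at 84.3% of shared, 73.4% of Veh-only and 48.7% of KLA-only loci, against 51.2% of resting AP-1 loci without FosL2.

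The 10 strongest shared loci had KLA counts of 159 to 213 and Veh counts of 37 to 82. All 10 held a TRE and at least 1 of the other 4 monomers after KLA, and none was within 1 kb of a TSS. Beside Tnfaip2 (213 with KLA, 37 with Veh), Pfkfb3 (199, 82) and Dlx2 (198, 69) they were near Reep3 (189, 48), Irf2bp2 (176, 54), Cdc42bpg, in an exon of Ehd1 (174, 72), Itga5, an integrin chain (168, 54), Slc4a1ap (168, 51), Klf6, a zinc-finger factor of the immediate response (164, 59), and St3gal1 (159, 51). Each of these Veh counts was above the Veh median of 24.

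The KLA-only class was led by signal in a ribosomal RNA region. Its 5 highest counts, 454 to 511, were peaks close together on chromosome 17 (chr17:39844003-39848363) in genes annotated as rRNA and lincRNA, with 62.0% to 71.5% GC and no TRE. Of the other 23 lists used, 1 had a peak there. A sixth locus without a TRE or another monomer was in an intron of Cdk8 (count 279). The remaining 4 were at Mtmr7 (209), Cd83 (157), Ccl2, 28.5 kb upstream of the gene for a chemokine that attracts monocytes (155), and App (154), and all 4 held at least 1 other monomer after KLA. Mtmr7 had a KLA count of 254 for Fos, 142 for JunB, 939 for JunD and 375 for ATF3. Leaving out the 5 ribosomal loci moved no percentage outside its interval.

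The 10 strongest Veh-only loci, with counts of 54 to 71, fell into equal groups. At 5 of them, near Ticam1 (71), Bcr (62), Spag9 (60), Sirpa (58) and Iqgap1 (54), other monomers were present after KLA, and 4 of these 5 held a TRE. At Ticam1 the KLA counts were 130 for Fos, 72 for JunB, 692 for JunD and 317 for ATF3. Sirpa encodes an inhibitory receptor of phagocytes, and its locus had Fos, JunD and ATF3 but no JunB. The other 5 had none of the 4 monomers after KLA and no TRE. They lay near Psap, in an exon of Cdh23 (62), in Neat1, a nuclear long non-coding RNA (57), in Fth1, which encodes the heavy chain of ferritin (57), just past Fth1, in an exon of Best1 (54), and in Fzr1, where the nearest TSS is that of 4930404N11Rik (54). Of these, Psap and Fzr1 had a Veh peak of JunD (55 and 50, where the median of that list is 50), and the locus in Fth1 had a Veh peak of Fos (16).

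Genes were linked to loci by the nearest protein-coding TSS, which does not show that a site acts on that gene. Of 21924 protein-coding genes, 24.7% were nearest to at least 1 FosL2 locus, 17.8% to a KLA-only locus, 8.39% to a shared locus and 9.23% to a Veh-only locus. Of the 2023 genes with a Veh-only locus, 1209 also had a shared or KLA-only locus, and 814 had no other FosL2 locus. The genes with most loci, named after their values were seen, were Zeb2 (33, of which 24 were KLA-only), Trib1 (32, 24), Lpp (30, 25), Tnfaip3 (28, 26) and Klf6 (27, 21). Zeb2 is a repressor active in the myeloid lineage. Zmiz1, by contrast, had 17 loci of which 10 were Veh-only.

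Of the 12 AP-1 genes, 11 had a KLA-only locus (91.7%, against 17.8% of all genes), 6 a shared (50.0%, against 8.39%) and 6 a Veh-only locus (50.0%, against 9.23%). Their 58 loci divided into 32 KLA-only (55.2%), 14 shared (24.1%) and 12 Veh-only (20.7%), near the 60.0%, 19.7% and 20.3% of all FosL2 loci. Jund had none. Of the 12 Veh-only loci, 11 had Fos, JunB, JunD or ATF3 after KLA (78.2% over all Veh-only loci). Of the 32 KLA-only loci, 18 had a Veh peak of ATF3, Jun or JunD (67.3% over all KLA-only loci). Some of these genes are neighbours, and the 23 loci of Fos, Jdp2 and Batf lay within 273 kb of chromosome 12, while the 16 loci of Atf3 and Batf3 lay within 181 kb of chromosome 1.

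Fosl2, the gene of the factor itself, had 3 KLA-only loci with counts of 71, 43 and 38, at 199.6 kb, 79.9 kb and 31.5 kb upstream of its TSS, and each held a TRE. Its Veh-only locus (chr5:32138406-32138629, count 21) was in an exon 2.72 kb past the TSS, without a TRE. There JunB, JunD and ATF3 had KLA peaks with counts of 24, 318 and 77, and Fos had none. FosL2 at its own gene was listed at distal sites after KLA and inside the gene with Veh, in 4 loci in all. The KLA counts of 43 and 38 were below the median of the KLA list (48), and the Veh count of 21 below that of the Veh list (24).

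Fos had 13 loci, 7 KLA-only, 3 shared and 3 Veh-only. The strongest (chr12:85513709-85513961) was KLA-only with a count of 127, 39.9 kb past the TSS, and carried Fos (293), JunB (153), JunD (1034) and ATF3 (378) after KLA with no Veh peak of these 4. Its shared loci had KLA counts of 117, 80 and 75 against Veh counts of 40, 44 and 31. All 3 Veh-only loci, with counts of 21, 20 and 17, had Fos and ATF3 after KLA. Atf3 also had 13 loci, 6 KLA-only, 4 shared and 3 Veh-only. FosL2 was at its promoter (0.19 kb upstream) with Veh, with a count of 31 and a percentile of 74.8, and was not listed there after KLA, when Fos (81), JunB (67), JunD (529) and ATF3 (247) were. Its strongest locus was shared (113 with KLA, 34 with Veh), 12.7 kb upstream.

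Jun had 5 loci, of which the strongest was shared (93 with KLA and 36 with Veh, 53.9 kb upstream). Junb had 6, none above a KLA count of 47, and the Veh-only locus at its promoter (count 20) had Fos, JunD and ATF3 after KLA. Jdp2, a repressor of AP-1, had 6 loci with KLA counts up to 48, and its promoter locus (0.824 kb upstream) was Veh-only with a count of 19. Batf had 4 KLA-only loci (26 to 76), Batf3 2 Veh-only (31 and 24) and 1 KLA-only locus (37), Fosb 1 shared (32 with KLA, 20 with Veh) and 1 KLA-only locus (48), and Fosl1 and Batf2 1 KLA-only locus each (39 and 62). BATF proteins are AP-1 members that lack an activation domain.

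Cytokine and chemokine genes had mostly KLA-only loci. Of 22 genes, 19 had a KLA-only locus (86.4%, against 17.8% of all genes), 5 a shared (22.7%, against 8.39%) and 2 a Veh-only locus (9.09%, against 9.23%). Their 89 loci divided into 80 KLA-only (89.9%, against 60.0% of all FosL2 loci), 7 shared (7.87%, against 19.7%) and 2 Veh-only (2.25%, against 20.3%). The strongest were near Ccl2 (155 with KLA), Ccl4 (149), Tnf (140), Il1a (117 with KLA and 30 with Veh) and Lif (109). The locus 2.87 kb past the TSS of Tnf (chr17:35198988-35199273), the gene of the cytokine that sets off much of the inflammatory response, held an NF-κB motif and no TRE, and of the other monomers JunD alone was listed there after KLA (483). Ccl2 had 9 loci, Ccl5 7 and Lif 6, and all were KLA-only. The Veh-only loci were at the TSS of Ccl3, with a count of 21, and 55.8 kb upstream of Csf1 (21), and both had JunD and ATF3 after KLA. Only 35 of the 80 KLA-only loci had ATF3, Jun or JunD with Veh (67.3% over all KLA-only loci).

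Genes of NF-κB subunits and inhibitors had 66 KLA-only (82.5%), 11 shared (13.75%) and 3 Veh-only loci (3.75%). Over all FosL2 loci these shares were 60.0%, 19.7% and 20.3%. Of 12 genes, 9 had a KLA-only locus (against 17.8% of all genes), 8 a shared (66.7%, against 8.39%) and 3 a Veh-only locus (25.0%, against 9.23%). Tnfaip3, the feedback inhibitor A20, had 28 loci, 26 of them KLA-only, led by a count of 121. Nfkbia, which encodes the inhibitor IκBα, had 7 KLA-only and 4 shared loci (107 with KLA and 18 with Veh at the strongest). Tnip1 (106), Nfkbib (99 with KLA, 23 with Veh) and Bcl3 (88 and 25) followed. Relb had 1 locus, at its promoter, Veh-only with a count of 19, and Rela had none. An NF-κB motif was in 11 of the 66 KLA-only loci (7.72% over all KLA-only loci). A Veh peak of ATF3, Jun or JunD was at 29 of the 66 (67.3% over all KLA-only loci).

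Of 23 immediate-early genes and feedback regulators, 17 had a KLA-only (73.9%, against 17.8% of all genes), 17 a shared (73.9%, against 8.39%) and 9 a Veh-only locus (39.1%, against 9.23%). Their 92, 36 and 18 loci (63.0%, 24.7% and 12.3%) may be set beside the 60.0%, 19.7% and 20.3% of all FosL2 loci. Klf6 (164 with KLA, 59 with Veh), Dusp1, a MAP kinase phosphatase (139, KLA-only), Dusp4 (138, KLA-only), Myc (129, 40) and Ier5 (121, 28) had the strongest. Ier3 had 3 shared loci and no other, while Klf4 had 5 Veh-only loci among its 12. Of the 18 Veh-only loci, 16 had another of the 4 monomers after KLA (78.2% over all Veh-only loci). Of 13 interferon response genes, 7 had any locus (24.7% over all genes). There were 16 KLA-only (84.2%, against 60.0% of all FosL2 loci), 2 shared (10.5%, against 19.7%) and 1 Veh-only locus (5.26%, against 20.3%). A KLA-only locus was near 6 of these genes (46.2%, against 17.8% of all genes). The strongest was 1.20 kb upstream of Oasl1 (71 with KLA, 29 with Veh), followed by Rsad2 (54), Ifnb1, the gene of interferon-β (54), Mx1 (40) and Irf1 (36).

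Of 18 macrophage identity genes, 12 had a KLA-only (66.7%, against 17.8% of all genes), 11 a shared (61.1%, against 8.39%) and 9 a Veh-only locus (50.0%, against 9.23%). Their 57, 20 and 17 loci (60.6%, 21.3% and 18.1%) divided nearly as all FosL2 loci did. Cd68, a lysosomal protein of macrophages, had a shared locus at its promoter that ranked 90 in the KLA list and 10 in the Veh list (132 with KLA, 70 with Veh), and next to it a Veh-only locus in an intron (31) with none of the 4 monomers after KLA. Runx1 (129, 54), Mitf (128, 36), Maf (122, KLA-only) and Cebpb (106, 39) came next. Cebpb had 6 Veh-only loci among 18. Lyz2, the gene of lysozyme, had 2 loci, both Veh-only within 1 kb of the TSS (26 and 19), and Mertk, a receptor for the uptake of dead cells, had a Veh-only locus at its TSS (22) without the 4 monomers. Of the 17 Veh-only loci, 14 had at least 1 of the 4 (78.2% over all Veh-only loci).

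Of 14 lipid handling genes, 10 had a KLA-only locus (71.4%, against 17.8% of all genes). Shared and Veh-only loci were each near 5 of the genes (35.7%, against 8.39% and 9.23%). There were 25 KLA-only, 9 shared and 8 Veh-only loci (59.5%, 21.4% and 19.0%), also nearly the division of all FosL2 loci. Of the 8 Veh-only loci, 5 had another of the 4 monomers after KLA (78.2% over all Veh-only loci). Plin2, which coats lipid droplets, had 4 Veh-only loci (34, 29, 24 and 24) and 2 KLA-only. At 3 of the 4, those inside or near the gene body, none of the 4 monomers was listed after KLA, while the locus 6.88 kb upstream held a TRE and had Fos (126), JunD (505) and ATF3 (160). Pparg had a Veh-only locus in an intron (41) and 3 KLA-only loci led by a count of 79. The highest KLA counts were at Abca1 (103, with 31 with Veh) and Abcg1 (83, 47), the exporters of cholesterol, and at Cd36 (100), the scavenger receptor, whose 6 loci were all KLA-only. Lpl had a KLA count of 60.

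Matrix and adhesion genes had 52 KLA-only, 13 shared and 5 Veh-only loci (74.3%, 18.6% and 7.14%, against 60.0%, 19.7% and 20.3% of all FosL2 loci). All 5 Veh-only loci had another of the 4 monomers after KLA, as did 78.2% of all Veh-only loci. Cd44, a receptor for hyaluronan, had 23 loci, 20 of them KLA-only (133 with KLA and 46 with Veh at the strongest, which was shared). Vcan (129, 33), Spp1, the gene of osteopontin (122, KLA-only), and Itgav (111, 48) were among the others. Each of these lists was set with earlier results of these data known, and the part of gene length and spacing in these counts was not tested.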

How the data were processed

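ChIP-seq for FosL2 was performed in TGEMs with Veh and with KLA. Reads had been aligned by the authors to mm10 (Bowtie2) and peaks found with HOMER relative to input. Replicate experiments were combined by the irreproducible discovery rate (IDR), with 0.05 as its limit. The deposited lists give each peak a count, a whole number not scaled to library size, and a score, the scaled IDR. The counts in the FosL2 lists ran from 16 to 96 with Veh and from 23 to 511 with KLA and summed to 144021 and 577113. The score deposited by the authors reached 1000, its ceiling, for 23.8% and 42.7% of peaks. It was used only as a threshold. Library totals were not used. How replicates were combined into a count is not given in the sources used here.

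Of 30 lists, 25 were read. The 3 knockout lists were not needed, and the BALB/cJ lists of Fos and JunB with Veh were empty or nearly so. Peaks were joined into loci (1 bp or more, positions as deposited), and a monomer was present where its peak overlapped the locus. TSSs, exons and UTRs were those of GENCODE M21 (GRCm38), and sequence was that of the RefSeq GRCm38 genome. Motif letters had to match without mismatch, on either strand, within 200 bp. The window of a FosL2 locus was centred on its leading peak, and 2 loci without sequence were left out. That of an AP-1 locus joined from several lists was centred on the middle of the locus, and the effect of this was not tested. The tools were pysam 0.24.0, pandas 2.3.3, matplotlib 3.10.9, numpy 2.4.6 and Python 3.11.15, and overlap, motif and interval functions were tested on simulated data.

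With 1 list per condition, no test was run. Named loci were the 10 with the highest count in each class, loci nearest to the genes of 8 lists (every AP-1 gene, up to 5 genes of the others by count, and further members where a count needed them), and the 5 shared loci with the largest shift each way. Of these, 2 loci are not reported here. The classes, lists and tests were chosen with earlier results of these data known. Alternatives were other overlap rules, stricter or equal-length lists, distal loci, another motif window and another TSS distance. AP-1 loci without FosL2 and without a Veh peak of ATF3, Jun or JunD were added as a background after seeing the data.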

Additional observations from a re-analysis of the deposited data

How the results depend on the processing

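With 1 list per condition, in which replicates were already combined, no replicate could be left out. No paired analysis was possible because each condition has a single list and no result comes from a test. Each value below is given against 50.8% of Veh loci lost and the other shares in the report. Cutting the other monomers' KLA lists to the FosL2 length, chosen after seeing the data, left at Veh-only loci 31.5% with Fos, 29.7% with JunB, 29.6% with JunD, 28.0% with ATF3, 29.5% with Jun and 42.3% with any of the 4. Leaving out the ribosomal loci, also chosen after seeing the data, moved none of the 25 results outside its interval.

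Requiring a score of 830 left 4883 KLA-only, 1411 shared and 927 Veh-only loci and 39.6% lost. Veh-only loci then held Fos at 79.9%, JunB at 55.6%, JunD at 88.3%, ATF3 at 87.5%, Jun at 66.8%, any of the 4 at 92.3%, PU.1 at 76.6%, CEBPα at 35.9% and PPARγ at 84.0%. TRE shares were 48.5% (KLA-only), 66.1% (shared) and 39.7% (Veh-only), shares within 1 kb of a TSS 8.34%, 11.3% and 18.7%, median Veh percentiles 59.6 (shared) and 33.2 (Veh-only), and NF-κB in KLA-only loci 8.38%. The strongest 50% of each list gave 3782, 1527 and 1137 loci and 42.7% lost, with Fos at 77.5%, JunB at 52.2%, JunD at 85.5%, ATF3 at 84.8%, Jun at 63.4%, any of the 4 at 90.6%, PU.1 at 74.3%, CEBPα at 33.9% and PPARγ at 82.0%. TRE shares were 51.0%, 66.9% and 35.9%, TSS shares 7.69%, 10.0% and 22.1%, and median percentiles 70.1 (shared, KLA), 63.2 (shared, Veh) and 37.6 (Veh-only). With the KLA list at the Veh length there were 3307 KLA-only loci and 62.0% lost, with Fos at 61.9%, JunB at 37.9%, JunD at 73.3%, ATF3 at 73.2%, Jun at 48.1%, any of the 4 at 81.5% and CEBPα at 28.2%. TRE was in 50.2% of KLA-only and 64.1% of shared loci, TSS shares were 7.29% and 10.1%, shared medians 65.1 (KLA) and 71.9 (Veh), and NF-κB 8.59%.

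Over 3 kb from a TSS, 1768 Veh-only loci remained and 46.3% were lost, with Fos at 64.5%, JunB at 41.5%, JunD at 71.9%, ATF3 at 74.4%, Jun at 47.9%, any of the 4 at 80.7%, CEBPα at 29.9%, Sp1 at 2.21% and TRE at 32.3%. TRE was in 42.6% of KLA-only loci, and median KLA percentiles were 44.2 (KLA-only) and 76.8 (shared). Joining peaks by centres within 100 bp gave 55.1% lost, Fos 59.0%, JunB 36.6%, JunD 70.8%, Jun 46.7%, CEBPα 28.2% and TRE 59.6% in shared loci. A reciprocal overlap of 50% gave 54.0% lost and JunB 35.8%. Monomer centres within 100 bp gave Fos 51.2%, JunB 31.0%, JunD 60.9%, ATF3 60.9%, Jun 38.7% and any of the 4 72.2%. For KLA-only, shared and Veh-only loci in turn, TRE shares were 32.6%, 48.4% and 20.4% in the central 100 bp and 44.5%, 60.5% and 31.0% with the CRE added, and TSS shares were 19.5%, 21.8% and 34.7% within 3 kb. The lists of stricter score, 50% or equal length leave out peaks of low score or count by construction. The cause of the moves under any of these settings was not tested. Weak binding below a list's threshold limits every absence reported.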
